A study of Mus musculus with 5 samples.

Results

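The plasminogen activation system was followed through 8 mouse genes, taken by symbol from the 46959 genes counted in each library: the activators Plau and Plat, the receptor gene Plaur, the serpin genes Serpine2, Serpinb2 and Serpinf1, and the genes of the surface complex Anxa2 and S100a10. All cells were D4M.3A, a melanoma line of C57BL/6 mice known to carry mutant Braf, at passages 7 to 12. In 2 libraries the cells had the genotype control and are named pBABE after a retroviral vector, and in 3 libraries, named caMNK, the kinase MNK was constitutively active. The design takes pBABE as the reference and counts each library as a biological replicate, so the comparison asks how the active kinase line differs from its control. How many lines were made per arm, and whether they are pools or clones, is not given in the sources used here, so effects of the kinase and of line history cannot be told apart and p-values measure the spread among these libraries.

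Plasmin is a serine protease that dissolves fibrin, cleaves matrix proteins and can activate other proteases. It is made from plasminogen by urokinase (uPA, from Plau), which works on cells bound to its receptor uPAR (from Plaur), and by tissue plasminogen activator (tPA, from Plat), which works best on fibrin and on cell-surface binding sites. Annexin A2 and S100A10 form a heterotetramer that binds tPA and plasminogen at the membrane, and serpins trap the activators in complexes that LRP1 and related receptors take up. In melanoma, tPA and uPA are known as proteases of pericellular matrix breakdown.

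The libraries held 27827199 to 48794336 counts. The second principal component of log2 CPM (counts scaled to TMM-adjusted library totals) carried 21.3% of the variance. On it caMNK replicate 2 lay at -31.8 and caMNK replicate 3 at 21.7. Results of the members are therefore given with and without replicate 2 where it changes them. For the other lists this is done as counts of calls and for some named genes. Mknk1, the gene of MNK1, measured 15.2 and 16.7 CPM in pBABE and 155 to 168 CPM in caMNK. Of 10 melanoma and neural crest markers, the pigment genes Tyrp1 and Dct were at 0 in every library, Mlana, Pmel, Tyr and Sox10 averaged under 1 CPM, and Sox9 was the most abundant at 36.7 CPM. The list summed to 58.7 and 60.95 CPM in pBABE and 93.7 to 101.5 CPM in caMNK. Sox9 averaged 22.3 CPM in pBABE and 46.4 CPM in caMNK, and Tfap2a 28.4 and 41.9 CPM. Mitf (6.09 and 5.18 CPM) and S100b (2.75 and 2.62 CPM) were not higher on average in caMNK. The summed level of the 8 macrophage and leukocyte markers was 13.4 to 14.9 CPM in pBABE and 13.2 to 18.3 CPM in caMNK, with Cd3e at 0. That of the 7 endothelial markers was 5.51 and 9.51 CPM against 3.73 to 4.04 CPM, mostly from Cdh5 and with Erg at 0, and that of the 6 epithelial markers stayed under 1 CPM in every library. The 8 fibroblast and smooth muscle markers summed to 277 and 292 CPM in pBABE and 182 to 234 CPM in caMNK, led by Col1a1 (119 CPM on average). They did not all move alike. Of the 6 tested by edgeR as below, 1 fell, Col1a1 (158 against 93.0 CPM on average), and 1 rose, Fap (0.840 against 2.18 CPM). Mitochondrial mRNAs were 1.20% and 1.32% of counts in pBABE and 1.91% to 2.16% in caMNK, and the 8 nuclear non-coding RNAs summed to 484 and 499 CPM against 750 to 1044 CPM. The part of these differences in the results below was not tested.

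The members lie on 7 chromosomes of the build mm10. By GENCODE M21 all 8 are protein-coding: Plau on chromosome 14 (20836660 to 20843385, plus strand), Plat on chromosome 8 (22757727 to 22782844, plus), Plaur on chromosome 7 (24462484 to 24475968, plus), Serpine2 on chromosome 1 (79794197 to 79861180, minus), Serpinb2 on chromosome 1 (107511423 to 107535478, plus), Serpinf1 on chromosome 11 (75409769 to 75422701, minus), Anxa2 on chromosome 9 (69453620 to 69491795, plus) and S100a10 on chromosome 3 (93555080 to 93564643, plus). None shares its span with a gene that has 10% or more of its counts. Serpinb2 overlaps Serpinb10 over 6476 bp, and Serpinb10 had 1 count in all libraries together against 164 for Serpinb2.

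Promoter windows of 5 of the 8 members were in RefSeq's table for GRCm38.p6. That of Serpinf1 is not shown, since 221 of its upstream bases are annotated as exon. The other 4 are shown, to set genes that differed in response side by side: Serpinb2 rose, Plaur was higher in every caMNK library without passing the test on all 5, and Anxa2 and Serpine2 were not called. Each is the stretch before a transcription start in that table, read 5′ to 3′ on the gene's strand. It holds up to 250 bases and ends at that start, or where an annotated exon begins before it. The stretch of Serpine2 lies inside the gene's span (79794197 to 79861180), before an internal start. It is therefore not the region upstream of the whole gene, which is not shown. Capitals mark matches, on either strand, of the AP-1 motif TGANTCA, the Sp1 box GGGCGG, the ETS motif AGGAAG and the TATA box TATAAA.
Serpinb2, chr1:107511173-107511422, plus strand: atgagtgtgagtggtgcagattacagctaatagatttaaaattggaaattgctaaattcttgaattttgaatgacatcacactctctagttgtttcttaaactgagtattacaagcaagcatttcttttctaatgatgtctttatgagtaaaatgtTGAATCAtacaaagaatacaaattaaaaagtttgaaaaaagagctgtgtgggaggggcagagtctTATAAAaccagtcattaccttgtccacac
Plaur, chr7:24462233-24462482, plus strand: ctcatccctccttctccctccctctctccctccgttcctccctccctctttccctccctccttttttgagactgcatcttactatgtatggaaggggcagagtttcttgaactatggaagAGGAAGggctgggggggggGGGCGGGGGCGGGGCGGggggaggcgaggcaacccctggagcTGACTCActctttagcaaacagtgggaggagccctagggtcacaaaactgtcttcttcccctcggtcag
Anxa2, chr9:69453433-69453619, plus strand: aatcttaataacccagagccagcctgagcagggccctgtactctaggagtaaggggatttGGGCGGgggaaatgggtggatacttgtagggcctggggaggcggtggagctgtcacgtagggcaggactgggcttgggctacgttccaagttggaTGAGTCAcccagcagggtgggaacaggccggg
Serpine2, chr1:79858697-79858915, minus strand: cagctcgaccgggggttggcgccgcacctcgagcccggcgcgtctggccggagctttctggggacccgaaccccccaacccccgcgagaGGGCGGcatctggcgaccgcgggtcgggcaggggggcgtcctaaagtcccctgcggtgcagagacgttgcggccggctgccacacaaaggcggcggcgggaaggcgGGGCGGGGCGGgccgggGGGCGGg

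In these stretches an AP-1 match began 94 bases before the start of Serpinb2, 69 bases before that of Plaur and 95 bases before that of Anxa2, and there was none in Serpine2. Distances are from the start in the table, which for Serpinb2 is the upstream one of a pair. For Anxa2 and Serpine2 a GENCODE M21 exon fills the last 63 and 31 bases before that start, so the stretch shown ends short of it. Over all 32851 windows of 250 bases before a start in the table, 6.75% hold an AP-1 match. Serpinb2 had a TATA box 29 bases before its start, a motif held by 12.4% of windows. An Sp1 match, held by 32.7% of windows, was found 3 times in the stretch shown for Plaur, 4 times in that for Serpine2 and 1 time in that for Anxa2. An ETS match, held by 29.5% of windows, began 130 bases before the start of Plaur. The shares are over full windows of 250 bases. On such a window, exon bases included, Anxa2 held 1 TATA and 3 Sp1 matches, and Serpine2 held 1 ETS and 6 Sp1 matches. These are matches of letters, and the series holds no measurement of binding.

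All 8 members passed the filter on low counts, but Serpinb2 would not have passed on its pBABE libraries alone. Of the 8, 3 rose and 1 fell in caMNK by edgeR's quasi-likelihood test, at an adjusted p under 0.05 over all 17026 genes tested. Over all those genes, 7.94% were called, 4.42% as rises (753 genes) and 3.52% as falls (599 genes), while scaling to total counts gave 997 rises and 466 falls. Serpinb2, Plau and Plat rose and Serpinf1 fell, while Plaur, S100a10, Anxa2 and Serpine2 were not called. The median log2 fold change of the members was 0.34, against -0.0021 over all genes tested. For 6 members the groups did not overlap in any library, 5 of them higher and 1 lower in caMNK, against 44.9% of all genes tested (22.3% higher and 22.6% lower). In bulk RNA, fewer cells that express a gene and less RNA per cell cannot be told apart.

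**Figure D1:**
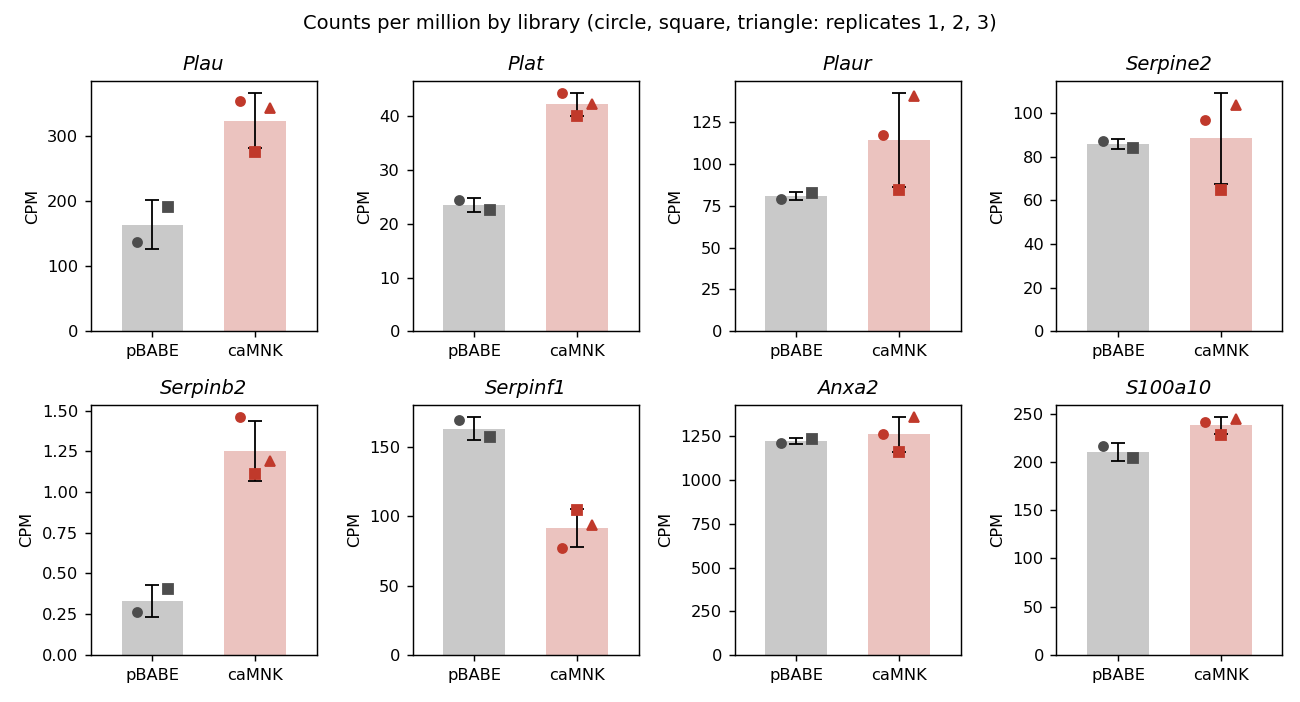
CPM of the 8 members in each library (y axis from 0, a scale of its own per gene), with bars for group means, error bars for 1 SD and symbols for replicates, pBABE in grey (n = 2) and caMNK in red (n = 3). Plau, Plat and Serpinb2 are higher and Serpinf1 lower in every caMNK library, and caMNK replicate 2 (square) is the lowest caMNK library for 7 of the 8 genes.

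Both activator genes rose. Plau, which encodes the urokinase protease, stood at 137 and 190 CPM in pBABE replicates 1 and 2, and at 353, 275 and 343 CPM in caMNK replicates 1 to 3. All caMNK libraries lay above both pBABE libraries, although the pBABE pair itself was well apart. The rise was 1.98-fold (log2 fold change 0.98, SE 0.162, 95% interval 0.61 to 1.35, edgeR adjusted p = 0.0122). Without pBABE replicate 1 the log2 fold change was 0.75 and the call was lost (adjusted p = 0.143), and without caMNK replicate 1 it was 0.92 (adjusted p = 0.0579).

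Plat, which encodes tPA, was less abundant and varied less. It measured 24.4 and 22.6 CPM in pBABE and 44.4, 40.2 and 42.3 CPM in caMNK, with a gap between the groups far wider than the spread within either. The rise was 1.80-fold (log2 fold change 0.85, SE 0.0962, 95% interval 0.63 to 1.06, adjusted p = 0.00502), which ranked 47 by p among the 17026 genes. Leaving out either pBABE replicate 1 or 2 ended the call (adjusted p = 0.0907 and 0.0741) with log2 fold changes of 0.89 and 0.79. The count of Plau over that of Plat within a library, which needs no scaling between libraries, was 5.61 and 8.42 in pBABE and 7.94, 6.84 and 8.10 in caMNK, so the ratio of the activators overlapped between the groups.

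Plaur, whose protein anchors urokinase to the cell surface, measured 79.2 and 82.5 CPM in pBABE and 117, 84.6 and 141 CPM in caMNK. The lowest caMNK library, replicate 2, was barely above the higher pBABE library, while the other caMNK libraries were well above both. The log2 fold change of 0.50 (SE 0.184, 95% interval 0.08 to 0.92) did not pass over all genes (adjusted p = 0.133). Without caMNK replicate 2 it was 0.68 (adjusted p = 3.41e-05), and DESeq2 called it on all libraries (log2 fold change 0.50, adjusted p = 0.0354). It was 0.32 when caMNK replicate 3 was left out (adjusted p = 0.167). The count of Plau over that of Plaur, ligand over receptor, was 1.73 and 2.31 in pBABE and 3.01, 3.24 and 2.43 in caMNK.

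The 3 serpin genes went 3 ways. Serpinb2 encodes PAI-2, an inhibitor of urokinase that is mostly kept inside cells. It was scarce, with 11 and 13 counts in the pBABE libraries and 42, 54 and 44 counts in the caMNK libraries, or 0.264 and 0.403 CPM against 1.46, 1.11 and 1.19 CPM. The exact Poisson 95% intervals, which cover counting error only, reached up to 0.689 CPM in pBABE and down to 0.834 CPM in caMNK. The rise was 3.77-fold (log2 fold change 1.91, SE 0.316, 95% interval 1.19 to 2.63, adjusted p = 0.0122). It was the largest of the members, and 0.822% of genes tested rose more. Serpinb2 entered the test through the caMNK libraries, the group where it is higher. Its call was lost without pBABE replicate 1 (log2 fold change 1.61, adjusted p = 0.170), pBABE replicate 2 (2.22, 0.0763) or caMNK replicate 1 (1.81, 0.0541), and with a minimum of 1 CPM in every library the gene was not tested.

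Serpinf1 encodes PEDF, a secreted member of the serpin family that does not inhibit proteases and is known for restraining blood vessel growth. It measured 170 and 157 CPM in pBABE and 77.4, 105 and 93.7 CPM in caMNK, so that every caMNK library was below both controls. The fall was 1.78-fold (log2 fold change -0.83, SE 0.125, 95% interval -1.11 to -0.54, adjusted p = 0.00964), and 1.58% of genes tested fell more. The call was lost without pBABE replicate 1 (log2 fold change -0.79, adjusted p = 0.135) and without pBABE replicate 2 (-0.89, 0.0763).

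Serpine2 encodes protease nexin-1, which inhibits thrombin, urokinase, tPA and plasmin. It measured 87.3 and 84.1 CPM in pBABE and 97.1, 64.8 and 104 CPM in caMNK. The caMNK libraries lay on both sides of the controls, with replicate 2 the lowest of the 5. The log2 fold change was 0.04 (95% interval -0.36 to 0.45, adjusted p = 0.904). Without caMNK replicate 2 it was 0.23 (adjusted p = 0.0226), and without caMNK replicate 1 or 3 its sign turned (-0.024 and -0.085). Plat over Serpine2 within a library was 0.279 and 0.269 in pBABE and 0.457, 0.620 and 0.408 in caMNK, and Plau over Serpine2 was 1.57 and 2.26 against 3.63, 4.24 and 3.30. Both ratios of activator to inhibitor were therefore higher in each caMNK library than in either control, and Serpinf1 over Serpine2 was lower in each (1.94 and 1.87 against 0.797, 1.62 and 0.905). These ratios are given as values with no test.

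Neither gene of the annexin A2 complex was called. Anxa2, which encodes the calcium-dependent membrane-binding subunit, measured 1212 and 1235 CPM in pBABE and 1263, 1161 and 1363 CPM in caMNK. The groups overlapped, and the log2 fold change was 0.05 (95% interval -0.17 to 0.26, adjusted p = 0.807). S100a10, whose protein carries the plasminogen-binding tail of the complex, measured 217 and 204 CPM in pBABE and 242, 228 and 244 CPM in caMNK. Its log2 fold change was 0.18 (95% interval -0.01 to 0.37, adjusted p = 0.223), and 0.21 without caMNK replicate 2 (adjusted p = 0.0305). For S100a10 every caMNK library was above both controls. Within libraries the ratio of Anxa2 to S100a10 counts was 5.59 and 6.07 in the controls, then 5.23, 5.09 and 5.58 with the active kinase.

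Per length, Anxa2 and S100a10 led the members in both groups by exon length, but not by gene body. Levels are given as CPM per kb of annotated exon, and where reads in introns are counted too, they overstate genes with long introns. In pBABE the order was Anxa2 (328), S100a10 (173), Serpinf1 (69.3), Plau (69.1), Plaur (30.9), Serpine2 (10.3), Plat (3.76) and Serpinb2 (0.142). The neighbours Serpinf1 and Plau could not be ordered there, with 66.7 to 71.9 against 57.8 to 80.5 in the 2 libraries. In caMNK Plau (137) stood clear of Serpinf1, and Plaur (43.7) and Serpinf1 (39.0) overlapped, at 32.3 to 53.9 and 32.8 to 44.4. The means there were 338 for Anxa2, 196 for S100a10, 10.7 for Serpine2, 6.77 for Plat and 0.534 for Serpinb2. Per kb of gene body, Plau came before S100a10 in pBABE (24.3 against 22.0) and before Anxa2 too in caMNK (48.1 against 33.1), so the place of Plau depends on the length used.

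**Figure D2:**
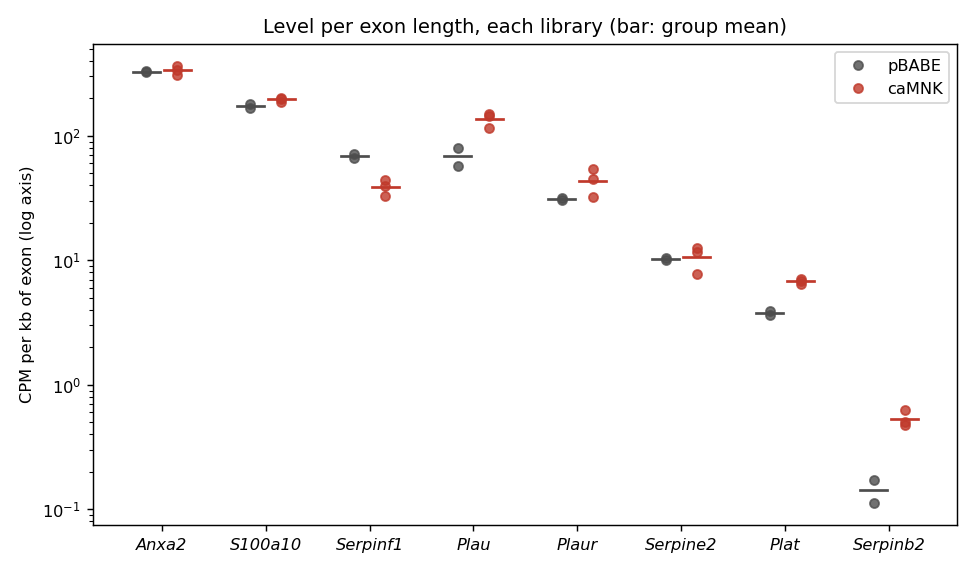
Level of each member as CPM per kb of annotated exon on a log axis, with a point per library and a bar for the group mean, ordered by the pBABE mean. Anxa2 and S100a10 lead in both groups, Plau and Serpinf1 sit together in pBABE at 69.1 and 69.3, and in caMNK they part to 137 and 39.0.

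The calls rested on few libraries, as they did over the whole table. With all 5 libraries 4 members were called. Without pBABE replicate 1 edgeR called 0 of 8 (4 at an unadjusted p under 0.05), where 0.132% of all genes were called. Without pBABE replicate 2 it called 1, Plau (0.31% of genes), without caMNK replicate 1 it called 2, Plat and Serpinf1 (1.51%), and without caMNK replicate 3 it called 4 (10.2%). Without caMNK replicate 2 it called 7, all but Anxa2, in a fit that called 29.6% of genes. Where pBABE is left with 1 library, its spread is taken from the caMNK libraries.

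**Figure D3:**
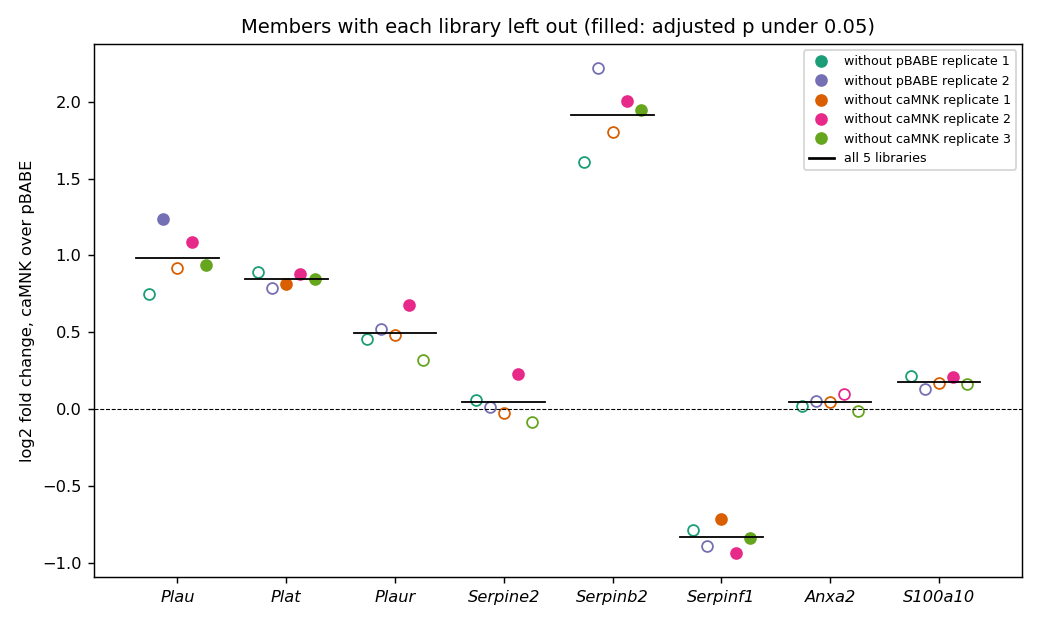
Log2 fold change of caMNK over pBABE for each member with 1 library left out (circles, a colour per library) and with all 5 (black bars), filled where the adjusted p is under 0.05. Without caMNK replicate 2 (pink) 7 of 8 circles are filled, and without pBABE replicate 1 (dark green) none is.

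Other genes of plasminogen activation gave 1 rise and 6 falls among the 30 of 50 that were abundant enough to test, beside 4.42% and 3.52% of all genes, and 2 rises and 5 falls when scaled to total counts. Plasminogen itself (Plg) was at 0 in 4 libraries and had 1 count in caMNK replicate 2. Of 3 tested upstream proteases, 0 were called by edgeR, DESeq2 or limma-voom, and 1 had an unadjusted edgeR p under 0.05. The lysosomal proteases Ctsl (1293 CPM on average) and Ctsb (588 CPM), which can activate pro-urokinase, had log2 fold changes of 0.0090 and 0.17 (adjusted p = 0.976 and 0.479). Ctsb was called by edgeR without caMNK replicate 2 (log2 fold change 0.30, adjusted p = 0.00974), in the fit that called 29.6% of all genes. Of 4 tested inhibitors outside the members, 0 were called by edgeR, DESeq2 or limma-voom, and 2 had an unadjusted edgeR p under 0.05, among them Serpinc1. For Serpinc1, the antithrombin gene, which shares reads with an overlapping gene, the log2 fold change was 0.36 (adjusted p = 0.156).

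Of 5 tested genes listed for plasminogen binding at the surface, 2 fell, Eno1 and Ahnak. Plgrkt of the same list, named with its values known, was not called by edgeR (log2 fold change 0.11, adjusted p = 0.521). Eno1, a glycolytic enzyme that also serves as a plasminogen receptor, went from 1421 and 1455 CPM in pBABE to 980, 1042 and 1020 CPM in caMNK (log2 fold change -0.50, SE 0.080, adjusted p = 0.0110). Ahnak, a giant scaffold protein that binds the annexin A2 complex, went from 1658 and 1927 CPM to 1197, 1247 and 1025 CPM (log2 fold change -0.63, adjusted p = 0.0146). For Anxa1, a relative of Anxa2, the log2 fold change was 0.18 (adjusted p = 0.195). Of 8 clearance genes, which encode lipoprotein receptors, their chaperone and other uptake receptors, 3 fell and none rose, among them the lipoprotein receptor genes Lrp8 (log2 fold change -0.54, adjusted p = 0.0178) and Vldlr (-0.33, 0.0458). For 7 of the 8 every caMNK library was below both controls, as for 22.6% of all genes tested, and for Lrp1 and Igf2r the groups were barely apart. Lrp1, the main uptake receptor for activator and serpin complexes, measured 972 and 1138 CPM in pBABE and 969, 740 and 910 CPM in caMNK (log2 fold change -0.27, adjusted p = 0.219). As a fall it was called by edgeR without a filter on low counts (-0.28, 0.0377) and with a replicate block (-0.31, 0.0467). Igf2r, which shares reads with an overlapping gene, stood at a log2 fold change of -0.07 (adjusted p = 0.637). Vldlr was no longer called after scaling to total counts (adjusted p = 0.0820), with a minimum of 1 CPM in every library (0.0585), once genes sharing reads were left out (0.0615), or without caMNK replicate 3 (0.0547).

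Among 5 tested partners of uPAR, the integrin genes moved apart. Itgb3, the beta chain of the vitronectin receptor, rose from 7.26 and 8.46 CPM to 19.8, 12.7 and 20.8 CPM (log2 fold change 1.17, SE 0.215, adjusted p = 0.0166), while Itgav, its alpha chain, fell from 271 and 280 CPM to 189, 219 and 156 CPM (log2 fold change -0.55, adjusted p = 0.0420). Itgav was no longer called under that minimum (adjusted p = 0.0566) or once genes sharing reads were left out (0.0522). The more abundant Itgb1 and Itga3 had log2 fold changes of -0.20 and -0.33 (adjusted p = 0.177 and 0.125). Itga5, named after its values were seen, was not called by edgeR with TMM scaling and the filter on low counts (log2 fold change 0.31, adjusted p = 0.0670). It was called by DESeq2 (0.32, 0.0451), and by edgeR with scaling to total counts (0.37, 0.0456) or without that filter (0.30, 0.0461). Without caMNK replicate 2 edgeR called Itgb1 (-0.24, adjusted p = 0.0206), Itga3 (-0.22, 0.0218) and Itga5 (0.35, 0.00169). Of 5 tested genes of thrombin and tissue factor, 0 were called by edgeR, DESeq2 or limma-voom on all 5 libraries with that filter. Of these, 1 had an unadjusted edgeR p under 0.05, Procr, named with its values known. It was called by edgeR without the filter (log2 fold change 0.42, adjusted p = 0.0209) and without caMNK replicate 2 (0.61, 0.000605). The thrombin receptor gene F2r (104 CPM) and Tfpi (32.7 CPM), an inhibitor of the tissue factor pathway, had log2 fold changes of 0.0074 and -0.12. Of the 30 genes, 0 were called by edgeR without pBABE replicate 1, pBABE replicate 2 or caMNK replicate 1 (9, 9 and 13 at an unadjusted p under 0.05), while 14 were called without caMNK replicate 2 and 6 without caMNK replicate 3.

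**Figure D4:**
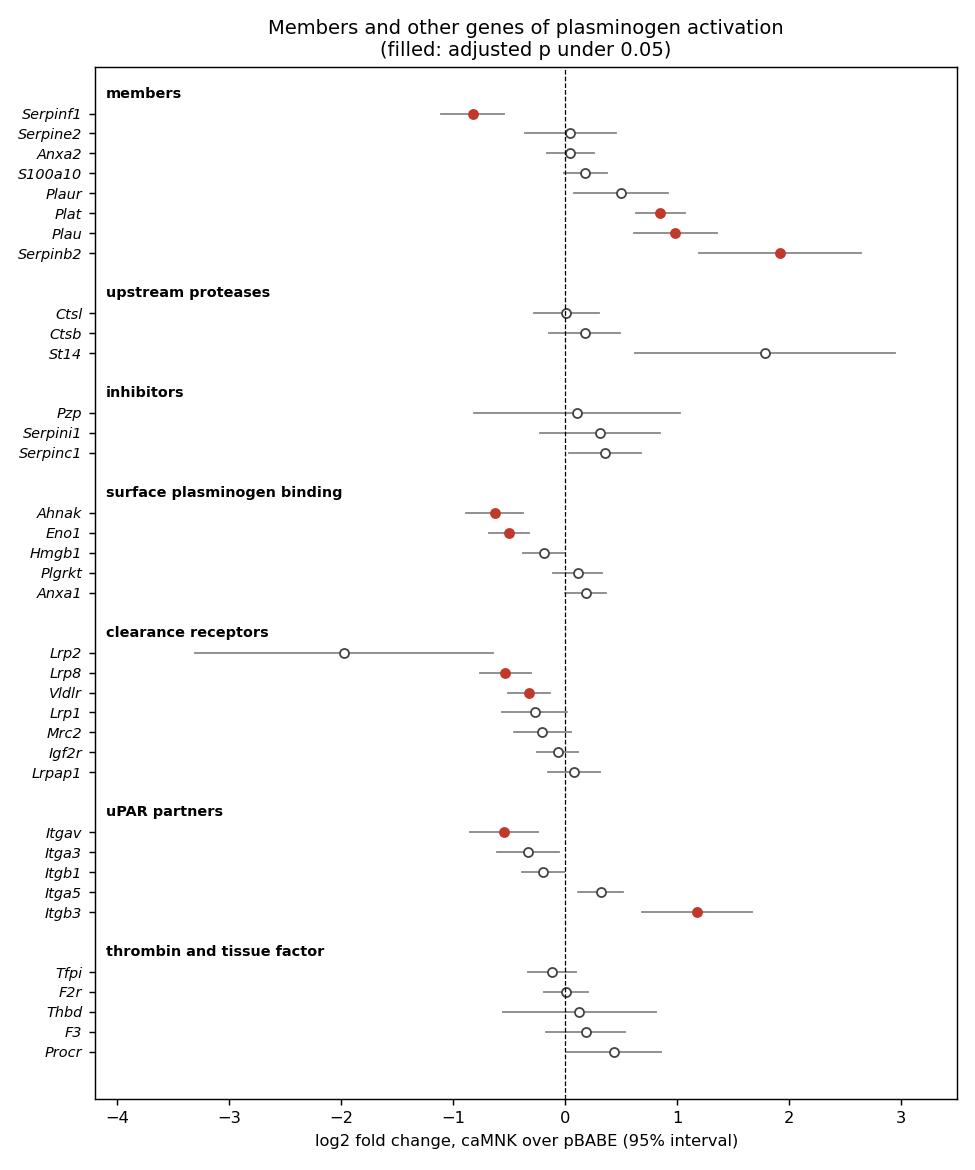
Log2 fold changes of caMNK over pBABE (x axis) with 95% intervals from the edgeR fit for the 8 members and the tested genes of the pathway list that are reported, grouped by role and filled where the adjusted p is under 0.05. Serpinb2, Plau and Plat lie to the right and Serpinf1 to the left among the members, and every clearance gene drawn but Lrpap1 lies left of 0.

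Of 65 other serpin genes in the files, 5 of which are in the pathway list too, 21 had no count and 14 were abundant enough to test. Serpinh1, which encodes the collagen chaperone HSP47 and is no protease inhibitor, fell from 1165 and 1090 CPM to 841, 866 and 939 CPM (log2 fold change -0.35, adjusted p = 0.0455). Scaling to total counts (adjusted p = 0.0681), the minimum of 1 CPM (0.0577) and leaving out genes sharing reads (0.0503) each ended its call. So did leaving out pBABE replicate 1 (0.362), pBABE replicate 2 (0.224) or caMNK replicate 1 (0.197). Serpinb6a, the next most abundant at 302 CPM, which shares reads with an overlapping gene, was at -0.09 on that scale (adjusted p = 0.528). Serpinb8, also named with its values known, reached a log2 fold change of 0.48 (adjusted p = 0.0572). It was called by DESeq2 (0.0186), after scaling to total counts (0.0455) and by edgeR without caMNK replicate 2 (log2 fold change 0.53, adjusted p = 0.00186). Calls by edgeR were also made without a filter on low counts (0.00545), with a replicate block (0.000945) and without caMNK replicate 3 (0.0308). The median of the 14 was 0.21, and 0 of them rose by edgeR on all 5 libraries with TMM scaling and no replicate block (6 of the 14 had an unadjusted p under 0.05, in either direction).

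The genes with the most similar pattern were sought for each called member, by the root mean square difference of log2 CPM, centred on its mean, over the 5 libraries. The search covered 9425 or 9426 genes whose mean log2 CPM reached 3, and those nearest to Plau were Ap3b2 (0.0872), Pthlh (0.0928) and Igfbp3 (0.0939). Plat was nearest to Rasgrf1 (0.0422), Snhg12 (0.0608) and Clk1 (0.0738). Serpinb2 was nearest to Nrcam (0.0910) and to the stromelysin genes Mmp3 (0.153) and Mmp10 (0.182). Their log2 fold changes were 1.77, 1.47 and 1.62, against 1.91 for Serpinb2. A prior count of 2 in the log2 CPM narrows the spread of so scarce a gene, and its counting error was not weighed. Serpinf1 was nearest to Pck2 (0.0245), Gpt2 (0.0403) and Slc7a5 (0.0548), which shares reads with an overlapping gene. The likeness is a description over 5 libraries that share the group difference.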

How the data were processed

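Total RNA was made into libraries with a stranded total RNA kit, per the labels' protocols. The authors deposited raw read counts per gene symbol, 1 file per library. The submitters' processing notes name STAR 2.5.3 and featureCounts 1.5.3, beside Trimmomatic 0.32, SAMtools 0.1.19, FastQC 0.11.2 and DESeq2, and the build mm10. How reads with several matches were counted is not given in the sources used here. For 6 of the 8 members the deposited gene length equals the whole span of the gene in GENCODE M21, so intronic reads are taken to be counted, and whether strand was used is not given either.

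All 5 libraries were fitted with edgeR 4.0.16 in R 4.3.3 (filterByExpr, TMM, robust quasi-likelihood F test, group as the single term), with Benjamini-Hochberg adjustment over all genes that passed and a call at 0.05. Each log2 fold change compares caMNK with pBABE, its SE is its size divided by the root of F, and CPM uses TMM-scaled totals. The alternatives were DESeq2 1.42.0, limma-voom (limma 3.58.1), other scalings and filters, genes without shared reads, a replicate block and each library left out. Named genes are the members, the called and most abundant genes of each list, and the 3 nearest in pattern to each called member. The members and lists were chosen with earlier results of these data known. Some genes of the lists are counted but not reported here.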

Additional observations from a re-analysis of the deposited data

How the results depend on the processing

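The calls of Plau, Plat and Serpinf1 held in all 8 fits that changed the tool, scaling, filter or block, and that of Serpinb2 in the 7 that tested it. Plaur was also called without a filter on low counts (adjusted p = 0.000351). The pathway list gave 12 calls among 43 genes tested without a filter, against 7 among 30 with it. The other serpins gave 2 of 14 with DESeq2 (Serpinb8 and Serpinh1) and 2 of 44 without a filter. They gave 0 of 8 at a minimum of 1 CPM in every library and 0 of 11 once genes sharing reads were left out (4 and 5 at an unadjusted p under 0.05). Over all genes, edgeR called 1352 of 17026 on all libraries, 2921 of 27978 without a filter and 709 of 10633 with genes sharing reads left out. Leaving out 1 library moved the calls between 0 and 7 for the members, 0 and 14 for the pathway list, and 0 and 4 for the other serpins. The log2 fold change of Serpine2 then ranged from -0.085 to 0.23 and that of Anxa2 from -0.012 to 0.10. The replicate block uses the numbers 1 and 2 shared by both groups. The number 3 occurs only in caMNK, so in that fit caMNK replicate 3 does not enter the group difference. With the block, Serpine2 (-0.11) and Anxa2 (-0.015) changed sign, with edgeR adjusted p-values of 0.571 and 0.955, and Plaur was at 0.30 (0.0516). Without caMNK replicate 3 the log2 fold changes were close to these, at -0.085, -0.012 and 0.32. The block gave 4 calls among the members, 10 in the pathway list, 2 among the other serpins and 2708 over all genes. Libraries with the same number did not deviate together (r = -0.055 and -0.025 across 17026 genes, which are not independent), so the number is not taken as a pairing. Serpinb2, at 11 to 54 counts a library, is the member that depth limits most. Beyond that property of the block, the cause of these changes was not tested.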
